A study of Danio rerio with 4 samples.

Results

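The genes described here take haem apart and store or export its iron. They were the rows of the deposited gene tables that carry the names hmox1a, blvrb, slc40a1, slc48a1a, slc48a1b, fthl27, fthl28, fthl29, fthl31 or fth1a. The gene name table often drops the paralog letter, so hmox1a was read from the single row named HMOX1 (ENSDARG00000027529). The 2 rows named SLC48A1 stand for both slc48a1 paralogs and are told apart by identifier, and a row named FTH1 (ENSDARG00000007975) was kept beside fth1a. This gave 11 rows of 28346, and all 11 passed the filter on low counts. The genes were selected on their fold between vein and non-vein libraries in these same data, so their levels and folds are given as a description and carry no test.

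Haem reaches the cytosol from the lysosome, where engulfed red cells and haemoproteins are digested, through the transporter encoded by slc48a1. Haem oxygenase opens the ring and frees iron, carbon monoxide and biliverdin, which biliverdin reductase turns into bilirubin. The iron is stored in the hollow shell of ferritin, whose heavy chain oxidises it, or leaves the cell through ferroportin, the product of slc40a1. In mammals this route is best known from macrophages of spleen and liver that clear old red cells.

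The cells came from zebrafish larvae at 5 days post fertilisation. They were taken from the caudal hematopoietic tissue, a plexus of vessels in the tail that houses blood stem cells. Vein endothelium was sorted as cells positive for both reporters of Tg(kdrl:GFP;lyve1b:DsRed), and non-vein endothelium as cells with GFP alone, with 2 libraries of each. In these larvae the promoter of kdrl, an endothelial receptor gene, drives GFP, and the promoter of lyve1b, a gene of veins and lymphatics, drives DsRed. All larvae were labelled wild type and untreated, and the sources used here do not give how many were pooled. Nothing in the labels says that the replicates were separate pools, so every p-value rests on a spread between samples that may be technical.

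Estimated counts summed to 15672159 and 16409447 in vein and to 18047152 and 18862102 in non-vein. A count of 0 in a library therefore allows up to 3 counts, or 0.159 to 0.191 CPM on these unscaled totals, counting error only. lyve1b, which restates the sort, stood at 1953 and 1636 CPM in vein and at 53.7 and 217 CPM in non-vein. kdrl, whose promoter drives GFP in both groups, stood at 10504 and 7933 CPM in vein and at 1998 and 2956 CPM in non-vein. All 9 rows of the vein endothelium marker list were higher in non-vein library 2 than in non-vein library 1, and so were 8 of the 11 rows described here. The same held for 9 of 9 skeletal muscle, 11 of 14 artery, 8 of 10 pan-endothelium and 10 of 15 erythroid rows. It held for 6 of 16 macrophage and 0 of 7 pan-leukocyte rows. The share over all genes was not counted. The vein markers summed to 6528 and 5777 CPM in the vein libraries against 317 and 898 CPM in the non-vein libraries. What part this difference between the non-vein libraries plays in the folds below was not tested, and values with a library left out are given beside the results they move most. In bulk samples, fewer cells of a type and less RNA per cell cannot be told apart. The groups differed in other markers as well. Pan-endothelium markers summed to 13108 and 10653 CPM in vein against 2990 and 4188 CPM in non-vein. Pan-leukocyte markers summed to 198 and 414 CPM in vein against 3897 and 3074 CPM in non-vein. Artery markers summed to 1334 and 1358 CPM in vein against 3563 and 3642 CPM in non-vein. Of the 14 artery rows, 4 were lower and 1 higher in vein by edgeR. What part these differences between the groups play in the folds below was not tested.

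Most of the route stood higher in vein. Both vein libraries lay above both non-vein libraries for 9 of the 11 rows, where 29.0% of the 15953 tested genes did so, and below them for 1, where 33.1% did. In the edgeR quasi-likelihood fit over all genes, 8 of the 11 rows lay past the threshold on the higher side and 1 on the lower side, where 4.11% and 7.33% of tested genes did. A fitted fold of at least 2 in favour of vein was reached by 9 of the 11 rows, and by 25.4% of tested genes. Because that contrast was known when the genes were chosen, nothing is read from these counts. The median fitted log2 fold of the 11 rows, vein over non-vein, was 2.27, and that of all tested genes was 0.01.

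**Figure D1:**
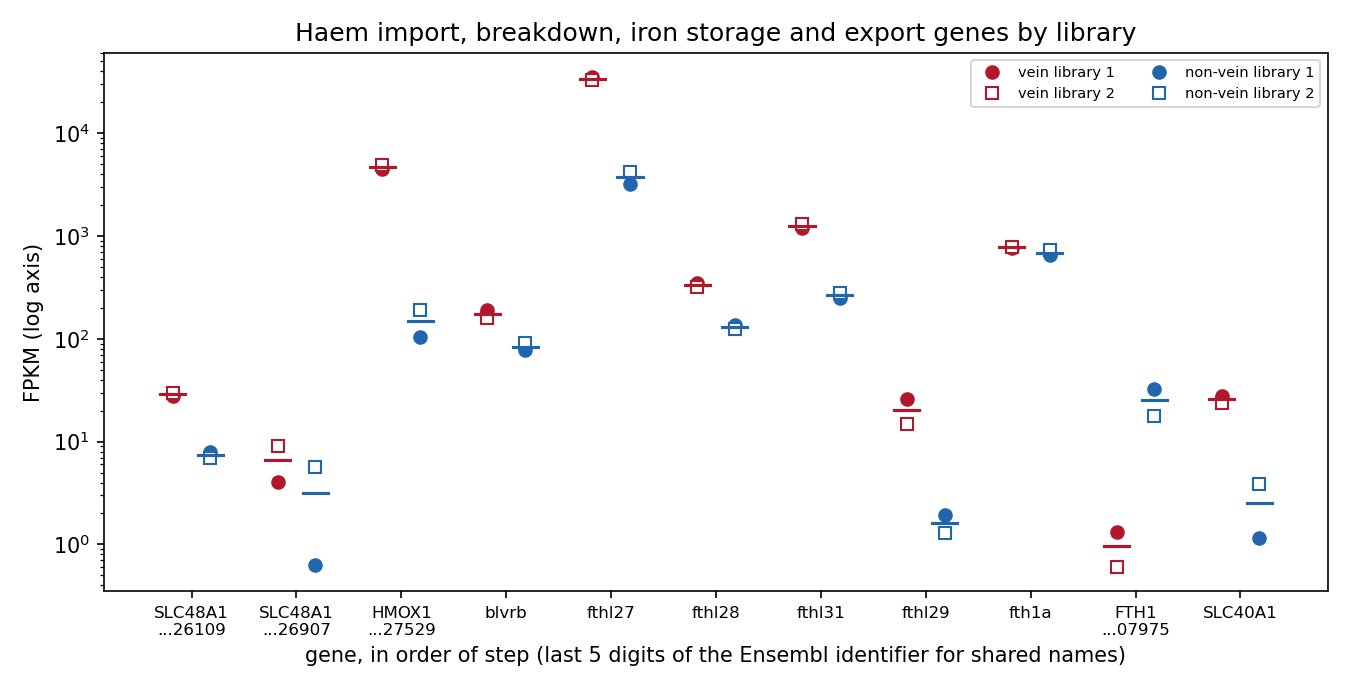
FPKM on a log axis for the 11 rows in order of step, with a point for each library and a bar at the group mean, vein left of non-vein (n = 2 each). HMOX1 and fthl27 stand highest in vein, at a mean of 4708 and 33827 FPKM, while fth1a lies at nearly the same level in all 4 libraries and FTH1 is the only row lower in vein.

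At the first step, the 2 SLC48A1 rows differed in how well their libraries agreed. SLC48A1 (ENSDARG00000026109) stood at 27.8 and 29.7 FPKM in the vein libraries, against 7.87 and 6.86 FPKM in the non-vein libraries. The groups did not overlap, the replicates lay close together, and the fitted fold on counts was 4.81. SLC48A1 (ENSDARG00000026907) stood at 4.01 and 9.16 FPKM in vein, against 0.629 and 5.63 FPKM in non-vein. Here the groups overlapped, and the non-vein libraries, with 17 and 159 counts, differed 8.75-fold in CPM. Its fitted log2 fold of 1.18 was 3.45 when non-vein library 2 was left out, 0.35 when non-vein library 1 was and 0.44 when vein library 2 was, so its size rests on single libraries.

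At the breakdown step, HMOX1, the inducible haem oxygenase, stood at 4488 and 4929 FPKM in the vein libraries, against 104 and 191 FPKM in the non-vein libraries. Both vein libraries were far above both non-vein libraries, and the fitted fold on counts was 34.2, the highest of the 11 rows. HMOX1 was the 17th and 14th highest row of vein libraries 1 and 2 by FPKM, and the 1208th and 710th of non-vein libraries 1 and 2. It took 0.635% and 0.697% of all counts in vein, against 0.0147% and 0.0270% in non-vein. Within the non-vein group, library 2 was 1.80 times library 1 in CPM, and the log2 fold of 5.10 became 5.57 without library 2 and 4.74 without library 1.

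The rows of the constitutive haem oxygenase were low in every library. HMOX2 (ENSDARG00000114695) stood at 12.8 and 8.61 CPM in vein, against 11.3 and 10.3 CPM in non-vein, and hmox2b at 14.4 and 9.50 CPM in vein, against 9.73 and 7.77 CPM in non-vein. Neither passed the test (log2 -0.01 and 0.45; edgeR, adjusted p = 0.992 and 0.696), and hmox2b was named after its values were seen. In FPKM, HMOX1 was 244 and 443 times the sum of these rows in the vein libraries and 6.98 and 14.7 times it in the non-vein libraries. HMOX1 made up 99.6% and 99.8% of the FPKM summed over HMOX1, HMOX2 and hmox2b in vein, against 87.5% and 93.6% in non-vein. hmox1b had no row under its own name. Without its paralog letter it leads to the same HMOX1 row, so it has no separate value in that sum.

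The biliverdin reductase genes had smaller folds than HMOX1. blvrb, a biliverdin and flavin reductase gene, stood at 190.3 and 158 FPKM in the vein libraries, against 77.1 and 90.7 FPKM in the non-vein libraries. The groups did not overlap, and the fitted fold on counts was 2.22. HMOX1 was 23.6 and 31.1 times blvrb in FPKM in vein, against 1.35 and 2.11 times in non-vein. BLVRA, the gene of the other biliverdin reductase, stood at 44.1 and 39.2 CPM in vein and at 25.97 and 19.9 CPM in non-vein, and missed the threshold (log2 0.86; edgeR, adjusted p = 0.166). Of the 3 tested rows of haem breakdown beside the members, edgeR called 0, while 1 was higher at an unadjusted p under 0.05 and DESeq2 called 0.

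Storage was where the counts lay. fthl27, a ferritin heavy-chain-like gene, stood at 34865 and 32789 FPKM in the vein libraries, against 3234 and 4241 FPKM in the non-vein libraries. It was the highest of all 28346 rows in both vein libraries, above the mitochondrial transcript MT-CO2 at 18669 and 17992 FPKM, and the 27th and 16th highest in non-vein libraries 1 and 2. It alone took 3.79% and 3.56% of all counts in vein, against 0.351% and 0.461% in non-vein. The fitted fold on counts was 9.67, and the log2 fold of 3.27 stayed between 3.11 and 3.46 with any library left out.

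The other ferritin-like genes were less abundant. fthl31 stood at 1186 and 1315 FPKM in the vein libraries, against 252 and 279 FPKM in the non-vein libraries, a fitted fold of 5.03 on counts. fthl28 stood at 347 and 316 FPKM in vein, against 136 and 126 FPKM in non-vein, a fitted fold of 2.70. fthl29, the least abundant of them in vein, stood at 25.7 and 14.99 FPKM in vein, against 1.92 and 1.29 FPKM in non-vein, a fitted fold of 13.5 on counts of 678 and 414 against 58 and 41. None of these genes overlapped between the groups, and by FPKM in vein the order was fthl27, fthl31, fthl28 and fthl29. fthl29 had the highest fitted fold of the 4, but its place above fthl27 did not hold with limma on log2(FPKM + 1), where the log2 folds were 2.998 for fthl29 and 3.19 for fthl27.

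Another ferritin-like gene, fthl30, is in the list of other ferritins. It stood at 26.7 and 36.1 CPM in vein and at 10.7 and 20.02 CPM in non-vein, and missed the threshold (log2 1.03; edgeR, adjusted p = 0.225). In the RefSeq gene table of assembly GRCz12tu, fthl27, fthl28, fthl30, fthl31 and fthl29 follow one another in this order with no gene between them. The gene next to fthl27, aldh16a1, stood at 86.9 and 60.8 CPM in vein and at 56.1 and 36.3 CPM in non-vein (log2 0.68; edgeR, adjusted p = 0.275). It was named for its place, after its values were seen. Estimated counts of such close copies can share reads, so the split between the ferritin rows is uncertain.

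The rows named for the heavy chain itself went other ways. fth1a stood at 771 and 778 FPKM in the vein libraries, against 658 and 724 FPKM in the non-vein libraries. The groups did not overlap, but the fitted fold was only 1.21, and its log2 value lay between 0.17 and 0.33 over all settings. FTH1 (ENSDARG00000007975) stood at 1.31 and 0.607 FPKM in vein, against 32.8 and 17.6 FPKM in non-vein. It was 24.7-fold lower in vein by the fit, on 33 and 16 counts against 950 and 534. Its log2 fold of -4.63 lay between -5.26 and -4.09 with a library left out, and was -3.70 with limma on log2(FPKM + 1). Pan-leukocyte markers lay on the same side: their 7 rows summed to 198 and 414 CPM in vein against 3897 and 3074 CPM in non-vein, with 6 of the 7 lower in vein by edgeR. The part of leukocyte RNA in the FTH1 values was not tested.

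Summed over the 7 ferritin rows, ferritin stood at 37225 and 35252 FPKM in the vein libraries, against 4328 and 5412 FPKM in the non-vein libraries. Each row is scaled to its own length, so this sum still depends in part on the split between copies. The 7 rows took 4.01% and 3.79% of all counts in vein, against 0.461% and 0.579% in non-vein. That share of counts does not depend on the split between them. The make-up of the FPKM sum differed as well, and it rests on the uncertain split. fthl27 gave 93.7% and 93.0% of the ferritin FPKM in vein, against 74.7% and 78.4% in non-vein, and fth1a gave 2.07% and 2.21% in vein, against 15.2% and 13.4% in non-vein. fthl27 was 45.2 and 42.2 times fth1a in the vein libraries and 4.92 and 5.86 times it in the non-vein libraries. The ratio to HMOX1 was smaller in vein, where ferritin FPKM was 8.30 and 7.15 times HMOX1 FPKM, against 41.6 and 28.3 times in non-vein.

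**Figure D2:**
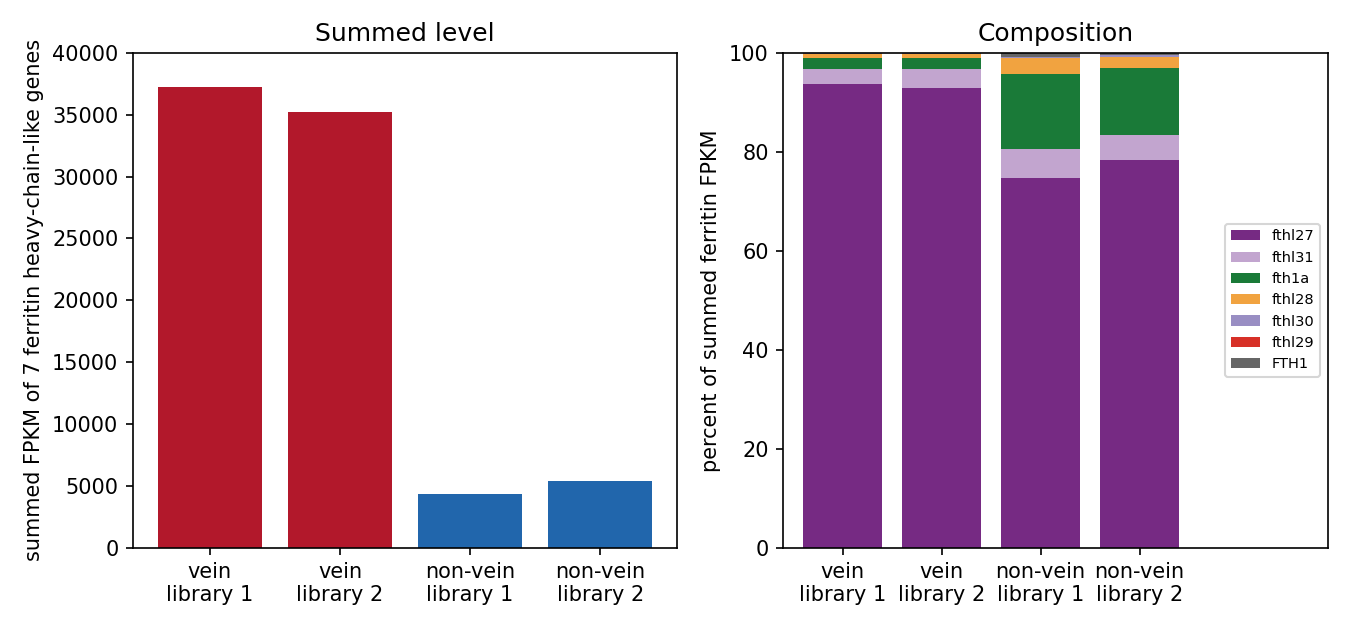
Left, FPKM summed over 7 ferritin heavy-chain-like rows in each library, as bars from 0. Right, the percent of that sum from each row. The vein libraries reach 37225 and 35252 FPKM against 4328 and 5412 FPKM in the non-vein libraries, and fth1a, at 15.2% and 13.4% of the sum in non-vein, shrinks to 2.07% and 2.21% in vein.

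At the export step, SLC40A1, the gene of ferroportin, stood at 27.95 and 23.9 FPKM in the vein libraries, against 1.16 and 3.86 FPKM in the non-vein libraries. The vein libraries lay close together and above both non-vein libraries, which differed 3.26-fold in CPM on 79 and 275 counts. The fitted fold was 11.1, and its log2 value of 3.47 was 4.55 with non-vein library 2 left out and 2.86 with non-vein library 1 left out. In level the exporter lay far below the summed ferritin rows, whose FPKM was 1332 and 1478 times that of SLC40A1 in vein, against 3737 and 1403 times in non-vein.

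In level within the vein libraries the order by mean FPKM was fthl27, HMOX1, fthl31, fth1a, fthl28, blvrb, SLC48A1 (ENSDARG00000026109), SLC40A1, fthl29, SLC48A1 (ENSDARG00000026907) and FTH1. SLC40A1, at 25.9 ± 2.89 FPKM, overlapped there with both its neighbours, SLC48A1 (ENSDARG00000026109), at 28.8 ± 1.37 FPKM, and fthl29, at 20.4 ± 7.60 FPKM (SD, n = 2 each). In non-vein the order was fthl27, fth1a, fthl31, HMOX1, fthl28, blvrb, FTH1, SLC48A1 (ENSDARG00000026109), SLC48A1 (ENSDARG00000026907), SLC40A1 and fthl29. There the libraries of HMOX1, at 148 ± 61.6 FPKM, overlapped with those of fthl28, at 131 ± 7.49 FPKM (SD, n = 2 each). SLC40A1 overlapped with SLC48A1 (ENSDARG00000026907) and with fthl29.

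Markers of cells that could bring haem or haem-degrading transcripts were set beside these values. Of 21 erythroid symbols, 14 were matched, so the erythroid sum is partial. Unmatched were tspo2 and the globin genes hbbe1.1, hbbe1.2, hbbe1.3, hbbe2, hbba1 and hbba2. Of the 15 erythroid rows, 11 were tested and 0 changed by edgeR's adjusted p, while 2 were higher at an unadjusted p under 0.05 and 2 by DESeq2. They summed to 2256 and 4331 CPM in the vein libraries, against 1740 and 1954 CPM in the non-vein libraries, with hbaa1 at 0 in all 4. For hbae1.3, SLC4A1 (ENSDARG00000012881), alas2, hemgn and nt5c2l1, both vein libraries lay above both non-vein libraries, and for klf17 below. hbae1.3 stood at 1216 and 2260 CPM in vein, against 440 and 743 CPM in non-vein. klf17 stood at 3.27 and 7.46 CPM in vein, against 8.04 and 16.9 CPM in non-vein. The other erythroid rows overlapped between groups. The erythroid genes named here were picked with their values known. The erythroid sum was higher in vein library 2 than in vein library 1. In vein libraries 1 and 2, HMOX1 stood at 6499 and 7299 CPM and fthl27 at 38752 and 37265 CPM. The part of erythroid RNA in the members' values was not tested.

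Of 20 macrophage symbols, 14 were matched, and mpeg1.2, mfap4, grn1, grn2, slc11a1 and lgals3bpb were not. The 16 macrophage rows found summed to 100.05 and 87.5 CPM in vein, against 162 and 149 CPM in non-vein. That difference rested on csf1rb, a receptor gene, at 0.0653 and 1.79 CPM in vein and at 72.5 and 59.96 CPM in non-vein. The other 15 rows gave 99.98 and 85.7 CPM in vein and 89.1 and 89.2 CPM in non-vein, and the groups overlapped. That sum was added after the data were seen. Among these rows ctss2.1 was lower in vein, at 5.42 and 12.6 CPM against 32.4 and 28.4 CPM in non-vein. ctss2.2, spi1a and cxcr3.2 were lower in both vein libraries as well. c1qc was higher, at 3.53 and 1.28 CPM in vein against 0 and 1.17 CPM in non-vein. These rows were named after their values were seen. cd68, a lysosomal glycoprotein gene, stood at 61.4 and 58.5 CPM in vein and at 35.1 and 28.4 CPM in non-vein (edgeR, adjusted p = 0.102). MPEG1 (ENSDARG00000055290) had 14.6 CPM in vein library 1 and 0 in the other libraries. csf1ra, a receptor gene of macrophages, and c1qa, a complement gene, were at 0 in all 4 libraries. marco, a macrophage scavenger receptor gene, was at 0 in both vein libraries. The part of macrophage RNA in the members' values was not tested. Of 9 tested macrophage rows, 1 was lower and 0 higher in vein by edgeR, with 1 higher and 3 lower at an unadjusted p under 0.05 and 0 and 4 by DESeq2. Skeletal muscle markers summed to 2904 and 7940 CPM in vein and to 813 and 2026 CPM in non-vein, and their part was not tested. Of their 9 tested rows, 1 was higher and 0 lower by edgeR, with 6 higher at an unadjusted p under 0.05 and 6 by DESeq2. The 6 neutrophil rows summed to 2005 and 2577 CPM in vein and to 1316 and 1505 CPM in non-vein. By edgeR 1 of them was higher and 0 lower, with 1 and 1 at an unadjusted p under 0.05 and by DESeq2. The higher neutrophil sum in vein rested on srgn, the row called higher. It stood at 1892.5 and 1892.4 CPM in vein, against 572 and 792 CPM in non-vein. lyz was lower in vein, at 82.8 and 563 CPM against 666 and 633 CPM in non-vein. CSF3R and cebp1 were lower in both vein libraries as well, while MMP9 and npsn overlapped between the groups. This split by row was made with the values known. The part of neutrophil RNA was not tested either. The vein endothelium and pan-endothelium lists each had 6 rows higher in vein and 0 lower by edgeR, with 0 lower at an unadjusted p under 0.05 and 0 by DESeq2.

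**Figure D3:**
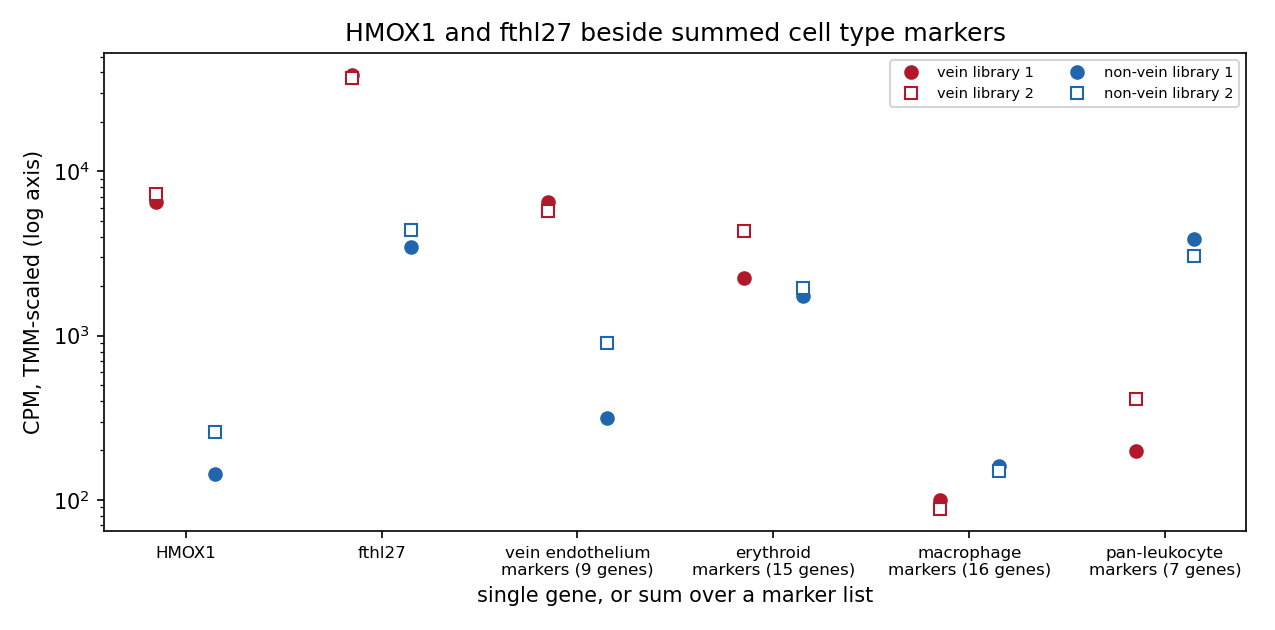
CPM on a log axis for HMOX1, for fthl27 and for 4 marker lists summed over their genes, with a point for each library, vein left of non-vein (n = 2 each). Summed vein endothelium and summed erythroid markers lie on the same side as HMOX1 and pan-leukocyte markers on the other. Macrophage markers sum to 100.05 and 87.5 CPM in vein against 162 and 149 CPM in non-vein. Without the row csf1rb their sums overlap between the groups.

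The other genes of haem and iron handling, which were tested, come next. Of 101 rows in 11 lists, 81 were tested, and 7 rose and 0 fell in vein at an adjusted p under 0.05 in the same edgeR fit, where 4.11% and 7.33% of all genes did. At an unadjusted p under 0.05, 14 of the 81 were higher and 7 lower, and DESeq2 called 13 of them higher and 7 lower. Over all genes, without the filter, DESeq2 called 1692 higher and 2387 lower. The share of all genes at an unadjusted p under 0.05 was not counted. The median log2 fold of the 81 was 0.37. Without non-vein library 2 the counts were 11 higher and 1 lower. Another 20 rows were too low to test, among them tfa, the transferrin gene, HEPH and CP, ferroxidase genes, and hamp, the hepcidin gene, none of which exceeded 10 counts in a library.

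**Figure D4:**
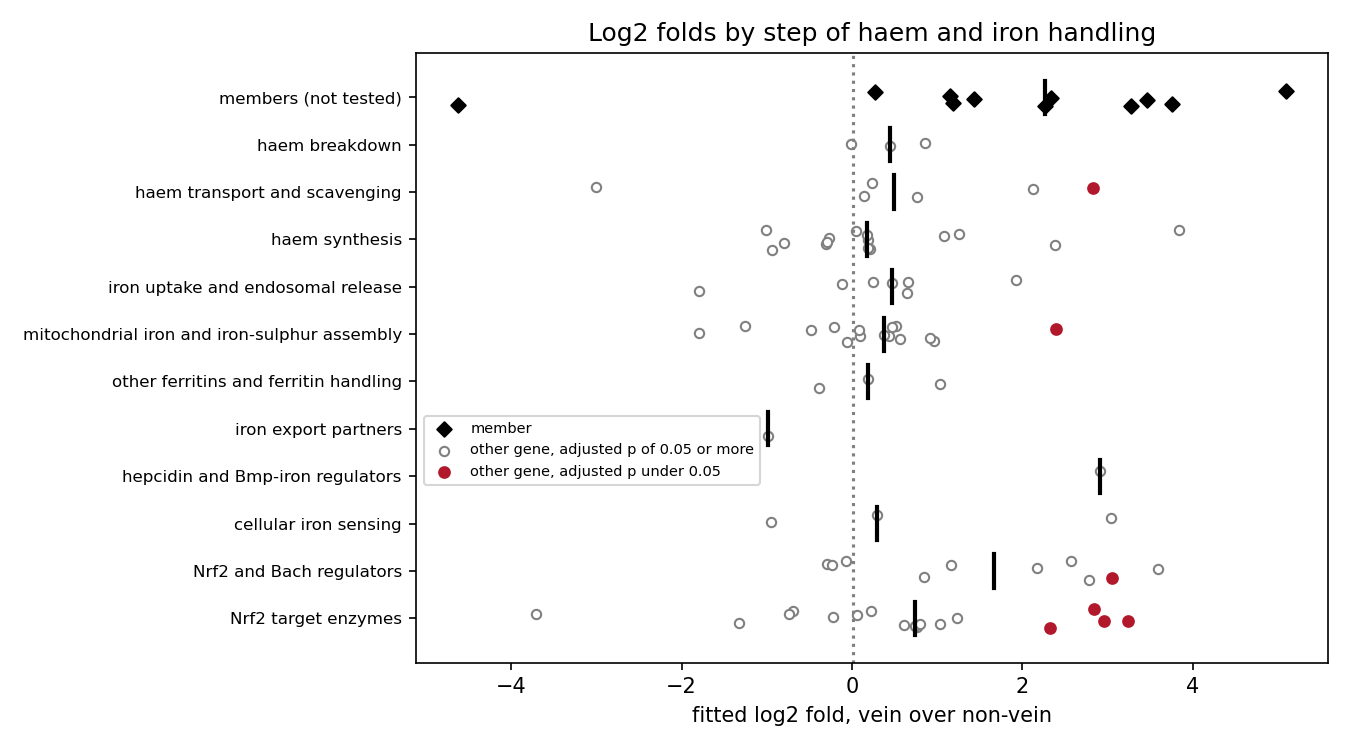
Fitted log2 fold, vein over non-vein, for the 11 rows described here (diamonds, no test) and for the 81 other tested genes by list (circles, filled red where edgeR's adjusted p was under 0.05). Black bars mark list medians and the dotted line the median of all tested genes, 0.01, and all 7 filled circles lie right of it.

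Of the 7 that rose, 5 stand in the lists of Nrf2 regulation, the response to oxidants and electrophiles that also acts on haem oxygenase. Its lists of regulators and target enzymes hold 10 and 17 of the 81 tested rows. All lists were chosen with earlier results of these data known. Among 10 tested regulators 1 rose and 0 fell by edgeR, with 2 higher and 0 lower at an unadjusted p under 0.05 and 2 and 0 by DESeq2. keap1a, whose product marks Nrf2 for degradation, stood at 108 and 105 CPM in the vein libraries, against 12.4 and 13.3 CPM in the non-vein libraries (log2 3.05, SE 0.28; edgeR, adjusted p = 0.0124). The other row, KEAP1 (ENSDARG00000074634), stood at 21.9 and 18.5 CPM in vein and at 9.40 and 33.2 CPM in non-vein and overlapped between groups (edgeR, adjusted p = 0.961). NFE2L2 (ENSDARG00000042824), a row for Nrf2 itself, stood at 221 and 255 CPM in vein, against 131 and 134 CPM in non-vein, and missed the threshold (log2 0.84; edgeR, adjusted p = 0.0611). Both were named after their values were seen.

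Among Nrf2 target enzymes, 4 of 17 tested rows rose and 0 fell (5 higher and 2 lower at an unadjusted p under 0.05, and 5 and 2 by DESeq2). gstp1.2, a glutathione S-transferase gene, stood at 4946 and 4182 CPM in the vein libraries, against 647 and 530 CPM in the non-vein libraries (log2 2.96, SE 0.21; edgeR, adjusted p = 0.00985). prdx1 (ENSDARG00000058734), a peroxide-reducing enzyme gene, stood at 862 and 651 CPM in vein, against 125 and 87.1 CPM in non-vein (log2 2.84; edgeR, adjusted p = 0.0144). The other row of that name, PRDX1 (ENSDARG00000025350), stood at 427 and 439 CPM in vein, against 714 and 680 CPM in non-vein (log2 -0.69; edgeR, adjusted p = 0.0692), and was named after its values were seen.

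NQO1, a quinone reductase gene, stood at 119.9 and 62.4 CPM in vein, against 5.00 and 14.3 CPM in non-vein (log2 3.24; edgeR, adjusted p = 0.0334). SQSTM1, the gene of the autophagy adaptor p62, stood at 441 and 514 CPM in vein, against 50.9 and 140.5 CPM in non-vein (log2 2.32; edgeR, adjusted p = 0.0409). Both calls depended on single libraries. Without vein library 1 the adjusted p was 0.0627 for NQO1 and 0.0547 for SQSTM1, and without vein library 2 it was 0.0546 for SQSTM1. Without non-vein library 2 the log2 folds were 4.18 for NQO1 and 3.22 for SQSTM1.

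The rows of Bach1, a haem-sensing repressor known in mammals to hold haem oxygenase down, were named after their values were seen. BACH1 (ENSDARG00000002196) stood at 29.8 and 28.8 CPM in the vein libraries, against 0 and 4.83 CPM in the non-vein libraries. bach1a stood at 16.4 and 18.94 CPM in vein, against 0 and 7.83 CPM in non-vein. Neither passed the test (edgeR, adjusted p = 0.230 for BACH1 and 0.498 for bach1a), and both were at 0 in non-vein library 1. With non-vein library 1 left out, edgeR's adjusted p was 0.0798 for BACH1 (log2 2.60) and 0.542 for bach1a (log2 1.18). With non-vein library 2 left out, the non-vein side is a single library at 0 counts, assumed to vary like the vein libraries, and edgeR's adjusted p was 0.00460 for BACH1 and 0.0104 for bach1a.

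The other 2 genes that rose were a transporter and an assembly factor, 1 of 6 tested rows of haem transport and 1 of 15 of mitochondrial iron and iron-sulphur assembly. abcg2a, of a transporter family that exports porphyrins in mammals, stood at 386 and 452 CPM in vein, against 37.2 and 80.8 CPM in non-vein (log2 2.83, SE 0.42; edgeR, adjusted p = 0.0187). Its log2 fold was 3.49 without non-vein library 2. ISCU (ENSDARG00000026582), a scaffold for iron-sulphur clusters, stood at 390 and 341 CPM in vein, against 48.03 and 90.8 CPM in non-vein (log2 2.39; edgeR, adjusted p = 0.0193). The second ISCU row (ENSDARG00000035596), named after its values were seen, stood at 189 and 182 CPM in vein and at 122 and 139 CPM in non-vein (log2 0.51; edgeR, adjusted p = 0.186).

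FLVCR1, a haem exporter gene, was on the other side, at 2.68 and 1.15 CPM in vein against 24.02 and 6.71 CPM in non-vein, and missed the threshold (log2 -3.00; edgeR, adjusted p = 0.0993). It was named after its values were seen. DESeq2 called it lower (adjusted p = 0.00983), while without non-vein library 1 edgeR gave a log2 fold of -1.80 (adjusted p = 0.652). Haem synthesis showed no call by edgeR among 15 tested rows, with 0 higher and 1 lower at an unadjusted p under 0.05 and 1 and 1 by DESeq2. ALAS1, the first enzyme of haem synthesis, stood at 110.1 and 159 CPM in vein, against 226 and 289 CPM in non-vein (log2 -0.94; edgeR, adjusted p = 0.0865). TMEM14C, which carries a haem precursor in mitochondria, stood at 110.1 and 109 CPM in vein, against 139 and 129 CPM in non-vein (log2 -0.29; edgeR, adjusted p = 0.451).

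Iron uptake gave 0 calls by edgeR among 7 tested rows, with 1 higher and 1 lower at an unadjusted p under 0.05 and the same numbers by DESeq2. slc11a2, a divalent metal transporter gene, stood at 11.95 and 15.4 CPM in vein, against 9.78 and 13.2 CPM in non-vein (log2 0.25; edgeR, adjusted p = 0.821). MCOLN1 (ENSDARG00000002285), a lysosomal cation channel gene, stood at 15.8 and 20.2 CPM in vein, against 2.77 and 6.71 CPM in non-vein (log2 1.92; edgeR, adjusted p = 0.128). Among 3 tested rows of ferritin handling and 1 of export partners, edgeR, DESeq2 and an unadjusted p under 0.05 each gave 0 calls. PCBP2, in human cells an iron chaperone that loads ferritin, stood at 113 and 198 CPM in vein, against 216 and 190.3 CPM in non-vein (log2 -0.39; edgeR, adjusted p = 0.492). hephl1a, a hephaestin-like gene, stood at 0.718 and 4.15 CPM in vein, against 2.77 and 6.86 CPM in non-vein (log2 -0.98; edgeR, adjusted p = 0.670).

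Among 3 tested rows of iron sensing and 1 of hepcidin regulation, 0 passed edgeR's threshold, while in each list 1 was higher at an unadjusted p under 0.05 and 1 by DESeq2. ACO1, the gene of the iron regulatory protein that doubles as cytosolic aconitase, stood at 37.5 and 50.2 CPM in vein, against 1.58 and 9.04 CPM in non-vein (log2 3.04; edgeR, adjusted p = 0.0765). IREB2, the gene of the second iron regulatory protein, stood at 7.44 and 12.1 CPM in vein, against 26.8 and 10.9 CPM in non-vein, and overlapped between groups (edgeR, adjusted p = 0.410). BMP6, which in mouse liver endothelium signals iron load to hepcidin, stood at 14.8 and 25.8 CPM in vein, against 1.14 and 4.22 CPM in non-vein (log2 2.92; edgeR, adjusted p = 0.0829). Both depended on single libraries. Without non-vein library 2, edgeR's adjusted p was 0.00894 for ACO1 (log2 4.79) and 0.0496 for BMP6 (log2 4.14). Without non-vein library 1 it was 0.0666 for ACO1 (log2 2.28) and 0.220 for BMP6 (log2 2.27).

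The genes whose profile over the 4 libraries lay nearest to that of HMOX1 were found among 7837 genes of at least 10 mean CPM, by the root mean square distance between centred log2 CPM. They included col27a1b, ENSDARG00000113150, clec11a and vcam1b, at distances from 0.45 to 0.65. With 2 libraries per group this measure rests largely on the size of the vein fold, and the log2 folds of these genes lay between 3.87 for vcam1b and 4.24 for col27a1b, beside 5.10 for HMOX1.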

How the data were processed

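Per the labels' protocols, sorted cells gave enriched-mRNA libraries (NEBNext Ultra, NovaSeq). Tools listed per the submitters' processing notes, with no role, were RSEM, HISAT2, DESeq2, StringTie 1.3.1, fastp 0.18.0 and Bowtie2 2.2.8, with build GRCz11. Strand use is not stated in those notes or the labels. The authors deposited estimated counts, which are whole numbers although the file headers say FPKM, and a table of FPKM (fragments relative to gene length and library size), used here to compare levels between genes. Reads that close paralogs share were divided between rows by the authors' estimation. Of 25522 Ensembl rows, 23608 had a symbol.

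Counts were filtered (filterByExpr, minimum count 10), TMM-scaled and tested with edgeR 4.0.16 (quasi-likelihood, legacy, group only, R 4.3.3) over 15953 genes, p-values adjusted by Benjamini-Hochberg, called under 0.05. CPM are TMM-scaled. The fit was checked on simulated counts of a much smaller spread than these data, so that check does not measure how it behaves here. Totals of 15672159 to 18862102 counts set the depth. With 2 samples per group the spread is poorly known (common biological coefficient of variation 0.699). Alternatives were DESeq2 1.42.0, other scalings and filters, limma 3.58.1 on FPKM, a replicate block and leaving out each library.

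Members and lists were chosen with earlier results of these data known. Of 109 pathway symbols, 100 were matched, among them hmox1b and fth1b, which led only to the member rows HMOX1 and FTH1. All members are named. Each list names its genes past the threshold (at most 6), or its 2 most abundant tested genes. The rule also names the 5 profiles nearest to HMOX1, of which not all are reported here, with kdrl and lyve1b as the check of the sort. Other names, said so in the text, were chosen after their values were seen.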

Additional observations from a re-analysis of the deposited data

How the results depend on the processing

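The 11 rows kept the sign of their log2 fold in all 13 alternatives, and only SLC48A1 (ENSDARG00000026907), which overlaps between groups, and SLC40A1 moved by over 1 on the log2 scale in any of them. Their median log2 fold, 2.27, was 1.83 with limma on log2(FPKM + 1), filtered or not, and 1.95 on log2(FPKM + 0.1). The 1826 changed genes became 4079 with DESeq2, 2845 with no filter, 484 with log2(FPKM + 0.1), 153 with log2(FPKM + 1) unfiltered, and 1084 to 1903 with a library left out. The 7 pathway genes called higher became 13 with DESeq2, 2 with log2(FPKM + 0.1), 1 with log2(FPKM + 1) unfiltered, and 6 to 11 with a library left out. The 0 called lower by edgeR became 8 with DESeq2 (7 of them among the 81 tested rows, since DESeq2 ran without the filter), 2 with no filter, 2 with filtered log2(FPKM + 1), and 0 to 1 with a library left out. The median log2 fold of all tested genes, 0.01, lay between -0.28 and 0.12 with a library left out. The causes of these shifts in counts were not tested. With the replicate number as a block, 1170 genes changed, 6 pathway genes were higher and 0 lower. Same-numbered libraries deviated together at r = 0.04 over genes. With 2 libraries per group this rests on a single difference within each group. It cannot decide whether the numbers pair the samples. keap1a was called in all settings, gstp1.2 in 13 of 14, and NQO1 and SQSTM1 in 10 of 14 each. Low rows rest on few counts, as for hephl1a, with 11 and 65 counts in vein and 51 and 135 in non-vein.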
